A study of Mus musculus with 7 samples.

Results

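Immunoglobulin genes and segments were followed here in RNA sequencing libraries of mouse CD8 T cells labelled as WT or as knockouts of ACLY (ATP citrate lyase, which makes acetyl-CoA from citrate in the cytosol). The members were all rows of the deposited table whose symbol names a heavy chain variable segment (Ighv), a kappa or lambda variable segment (Igkv, Iglv), a constant region (Ighm, Ighd, the Ighg genes, Igha, Igkc, the Iglc genes) or the joining chain Jchain. There were 44 members among 16156 genes, made up of 32 variable segments, 11 constant regions and Jchain. The table held 7 of 115 annotated Ighv segments that are not pseudogenes, 23 of 100 Igkv segments and 2 of 3 Iglv segments. Every gene in the table reached at least 0.221 CPM (counts scaled to a common library total) in 3 or more libraries, so a segment seen in fewer libraries is not among the members, and sums over segments are sums over measured segments only. A member present in few libraries could also pass because of the libraries in which it was high, so counts over the members describe this table and support nothing more.

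The libraries came from OT-I cells, whose transgenic T cell receptor recognises an ovalbumin peptide. Donor cells of strain C57Bl/6, either WT (4 libraries) or ACLY KO (3 libraries), carried a congenic mark. They had been placed into C57Bl/6 hosts 1 day before an infection with Listeria monocytogenes that makes ovalbumin (LmOVA), and were recovered 6 days after it. How the deletion was made is not given in the sources used here, and no label describes a removal of the hosts' own lymphocytes. Acly itself was at 276 to 414 CPM in the WT libraries and at 262, 62.0 and 209 CPM in KO libraries 1 to 3, below every WT library but not absent (log2 -1.0 ± 0.44, SE; edgeR adjusted p = 0.278). Which exons were deleted is not given either, so this level does not check the labels. The labels do not tie libraries to animals, and the p-values below therefore reflect the spread among libraries, which may be technical.

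An antibody is built from heavy chains and light chains. A B cell joins 1 variable segment to shorter segments and to a constant region in each chain. Naive B cells carry the constant regions mu (Ighm) and delta (Ighd) on alternative transcripts of the same heavy chain gene, and after activation they can switch to gamma (Ighg) or alpha (Igha). The light chain is either kappa (Igkc) or lambda (Iglc), and Jchain links the units of secreted IgM and IgA. T cells rearrange their receptor genes in place of the immunoglobulin genes, but transcripts of the unrearranged mu region have been described in cells of the T lineage.

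Sequences decide how well neighbouring members can be told apart by reads. The lambda constant regions and the Igkv6 segments are shown because reads of these near-identical members bear on values given below. Each run is the start of the coding sequence, with the coordinates of the whole gene, 5′ to 3′, in GENCODE release M21 for mm10. Capitals mark bases that differ from, or are missing in, the first sequence of each set.
Iglc2 (chr16:19198396-19200351, minus strand): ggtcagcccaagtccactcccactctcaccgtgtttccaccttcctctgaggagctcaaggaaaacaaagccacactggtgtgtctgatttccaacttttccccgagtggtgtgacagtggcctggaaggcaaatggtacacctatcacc
Iglc3 (chr16:19065230-19065681, minus strand): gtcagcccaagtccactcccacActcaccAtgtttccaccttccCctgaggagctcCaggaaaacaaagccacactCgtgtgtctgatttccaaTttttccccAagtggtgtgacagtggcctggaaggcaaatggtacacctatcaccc
Iglc1 (chr16:19061618-19062071, minus strand): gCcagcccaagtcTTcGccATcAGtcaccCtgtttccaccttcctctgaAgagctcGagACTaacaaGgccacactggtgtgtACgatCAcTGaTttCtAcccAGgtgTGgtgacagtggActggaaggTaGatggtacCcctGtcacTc
Igkv6-15 (chr6:70406469-70406992, minus strand): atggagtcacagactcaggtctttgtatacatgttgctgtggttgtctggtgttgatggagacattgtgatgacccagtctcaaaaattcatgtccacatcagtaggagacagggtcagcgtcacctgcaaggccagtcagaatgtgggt
Igkv6-13 (chr6:70457501-70458036, minus strand): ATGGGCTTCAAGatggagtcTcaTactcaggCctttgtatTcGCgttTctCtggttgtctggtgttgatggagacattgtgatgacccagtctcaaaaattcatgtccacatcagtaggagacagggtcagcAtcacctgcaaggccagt
Igkv6-23 (chr6:70260409-70260955, minus strand): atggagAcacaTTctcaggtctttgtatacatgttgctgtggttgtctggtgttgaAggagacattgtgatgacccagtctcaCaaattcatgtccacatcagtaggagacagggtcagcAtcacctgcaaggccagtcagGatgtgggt
Over their coding sequences Iglc2 and Iglc3 were 96.5% identical, and both were less like Iglc1 (74.8% and 75.7%). Igkv6-15 was 93.7% identical to Igkv6-13 and 94.5% to Igkv6-23. Of the 32 measured variable segments, 14 had another annotated segment of the same class that was at least 95% identical, and for 20 the nearest relative was not in the table. How reads that match several segments were assigned is not given in the sources used here, so the level of a single segment, and of Iglc2 against Iglc3, is uncertain.

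Immunoglobulin counts were a small part of every library and a larger one in KO replicate 1. They took 0.0305%, 0.0278%, 0.0368% and 0.0672% of all counts in WT libraries 1 to 4, and 1.16%, 0.136% and 0.063% in KO libraries 1 to 3. The share in KO replicate 3 was below that of WT replicate 4. As CPM after TMM scaling the members summed to 317, 282, 386 and 675 in WT libraries 1 to 4 and to 11704, 1258 and 604 in KO libraries 1 to 3. The mean was 4522 ± 6228 CPM in KO (n = 3, SD) and 415 ± 179 CPM in WT (n = 4, SD), so the spread among the KO libraries was larger than the difference of the means. Ighm, the mu constant region, made up most of each sum except that of KO replicate 1. With Ighm left out, the other 43 members summed to 14.1, 57.7, 53.6 and 10.9 CPM in WT libraries 1 to 4 and to 7959, 319 and 59.0 CPM in KO libraries 1 to 3, which put KO replicate 3 next to WT replicates 2 and 3.

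**Figure D1:**
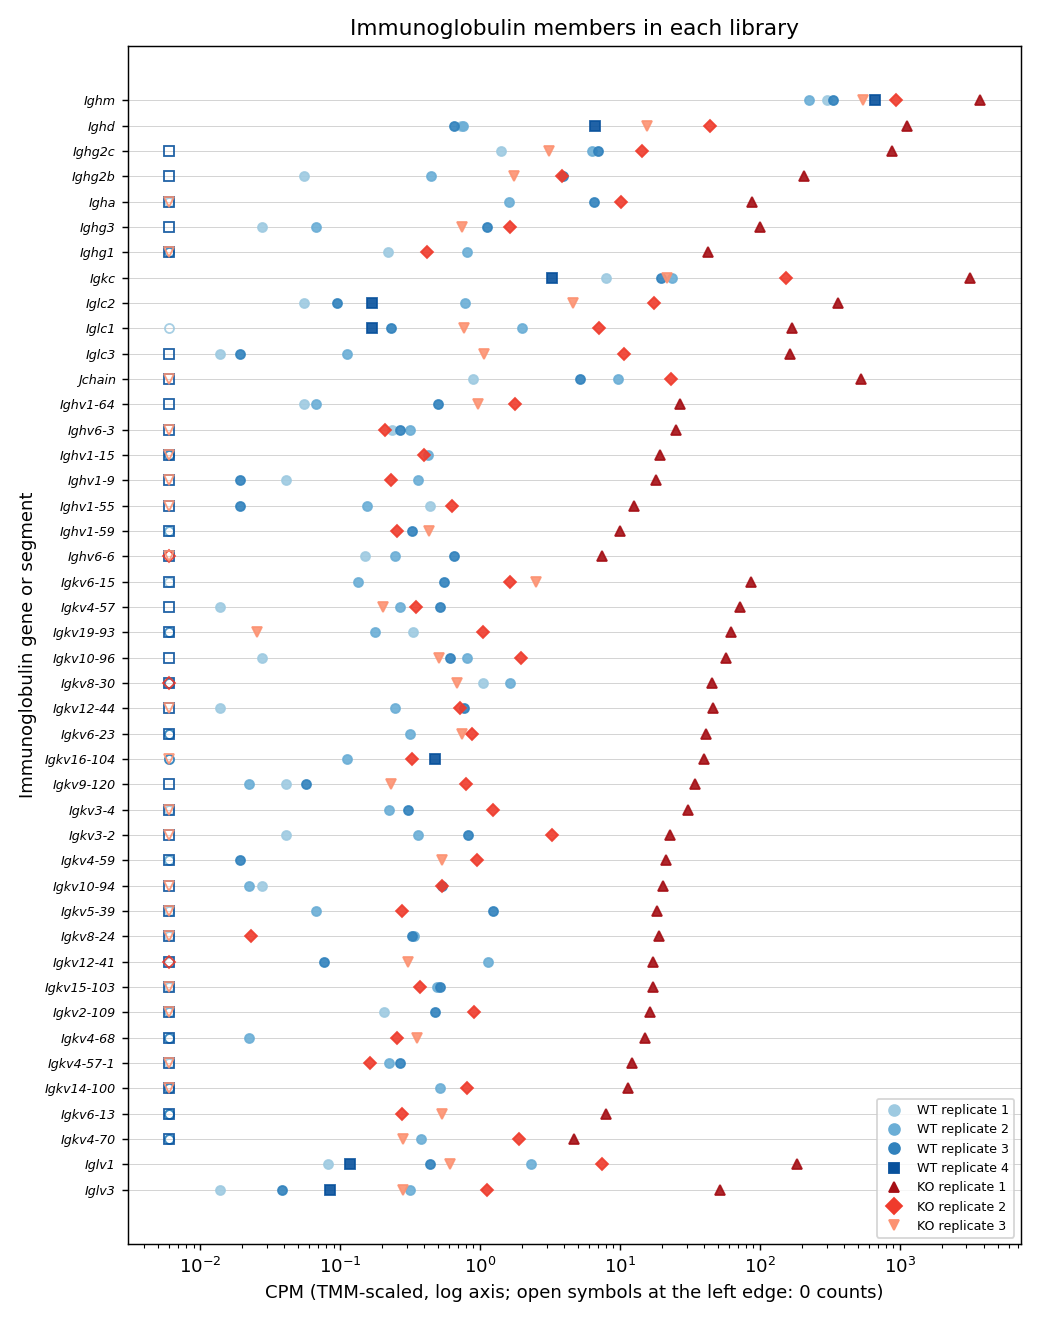
Level of each of the 44 members (rows) in each of the 7 libraries, as TMM-scaled CPM on a log axis. Blue symbols are WT libraries and red symbols are KO libraries, and open symbols at the left edge mark 0 counts. KO replicate 1 is the rightmost symbol in every row, and WT replicate 4 is at 0 for 36 of 44 members.

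KO replicate 1 had the highest CPM of the 7 libraries for 44 of 44 members, as it did for 20.3% of all genes. It had no member at 0 counts, against 3 in KO replicate 2 and 19 in KO replicate 3. In WT libraries 1 to 4 the number at 0 was 18, 4, 10 and 36. WT replicate 4 therefore had the most members at 0 although it had the highest Ighm of the WT libraries. The KO libraries held 37473484 to 39692359 counts and the WT libraries 45288353 to 75586011 counts, and the part of depth in the numbers at 0 was not tested. A count of 0 allows up to 0.0414 to 0.0802 CPM, depending on the library (3 counts, counting error only).

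The comparison between genotypes asked which members differed in the libraries labelled ACLY KO. At an adjusted p under 0.05, edgeR's quasi-likelihood test called 0 members higher and 0 lower, and 0% of all genes were called in either direction. All 44 log2 differences were above 0, with a median of 5.97 (5.92 with Igkv6-13, which had 0 counts in every WT library, at its lower bound), where the median over all genes tested was -3.6e-05. At an unadjusted p under 0.05, 35 members were higher and 0 lower, where 11% of all genes were higher and 7.89% lower. Every KO library lay above every WT library for 10 members, where this held for 9.46% of all genes. The 10 were Ighd, Iglc2, Iglc3, Ighv1-64, Igkv4-59, Igkv4-68, Igkv6-13, Igkv6-15, Igkv6-23 and Igkv9-120. Of these, Iglc3, Igkv4-59, Igkv4-68, Igkv6-13 and Igkv9-120 were under 0.221 CPM in every WT library, so they could be in the table only with all 3 KO libraries above that level, and their separation was fixed by it. These 5 were also among the 35 members higher at an unadjusted p under 0.05. Among the other 39 members 5 separated the groups, or 12.8%, where this held for 8.4% of all genes with a WT library at or above that level. Other tools made calls: DESeq2 called 7 members higher (6.41% of all genes), with no adjusted p for 29 of the members, limma voom with quality weights called 12 (5.32% of all genes), and the bias-adjusted edgeR fit called 7 (3.07% of all genes). The members present only through the KO libraries made up 2, 4 and 2 of these calls.

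Single libraries moved these counts. Without KO replicate 1 the median log2 difference was 1.64, edgeR called 1 member higher after adjustment (Igkv4-59, present only through the KO libraries; 0.687% of all genes), and 8 members were higher at an unadjusted p under 0.05 (10% of all genes). These 8 held all 5 members present only through the KO libraries, and the others were Ighd, Iglc2 and Igkc. Without KO replicate 3, edgeR called 3 members (0.879% of all genes), 2 of them present only through the KO libraries, and the remaining KO libraries lay above the WT libraries for 27 members (17% of all genes). The 35 members higher at an unadjusted p under 0.05 became 19 of 41 tested without WT replicate 1 (7.74% of all genes), 21 of 36 without WT replicate 2 (7.76%), 24 of 36 without WT replicate 3 (8.39%) and 21 of 42 without WT replicate 4 (12.7%). Without both KO replicate 1 and WT replicate 4, edgeR called 7 of 43 members tested higher (5.43% of all genes), 5 of them present only through the KO libraries. In these bulk libraries, fewer cells of a type and less RNA per cell cannot be told apart.

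Ighm, the mu constant region (chr12:113418558-113422730, minus strand), took more counts than any other member in every library. It was at 303, 224, 332 and 664 CPM in WT libraries 1 to 4 and at 3745, 939 and 545 CPM in KO libraries 1 to 3. The groups overlapped, because WT replicate 4 was above KO replicate 3. The mean was 1743 ± 1745 CPM in KO (n = 3, SD) and 381 ± 194 CPM in WT (n = 4, SD), a log2 difference of 2.19 ± 0.68 (SE; edgeR adjusted p = 0.153). DESeq2 and limma voom called it (adjusted p = 0.00534 and 0.0434). Without KO replicate 1 the log2 difference was 0.96.

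Ighm was nearly the only heavy chain constant region in WT libraries. It took 99.2%, 95.7%, 94.6% and 99.01% of heavy chain constant counts in WT libraries 1 to 4. In KO libraries 1 to 3 it took 60.4% (95% exact Clopper-Pearson interval 60.2 to 60.6), 92.7% (92.4 to 92.9) and 96.2% (96.0 to 96.5). KO replicate 1 thus held the largest share of other heavy chain classes. The balance of Ighm and kappa light chain also varied between libraries. The ratio of Ighm to Igkc CPM was 38.3, 9.57, 17.0 and 204 in WT libraries 1 to 4 and 1.17, 6.08 and 24.9 in KO libraries 1 to 3. Per kilobase of exon, Igkc was 3.03 times as high as Ighm in KO replicate 1, and 0.0174 to 0.583 times as high in the other libraries (0.583 in KO replicate 2, 0.0174 in WT replicate 4). Which cells the Ighm transcripts of the WT libraries came from was not tested.

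**Figure D2:**
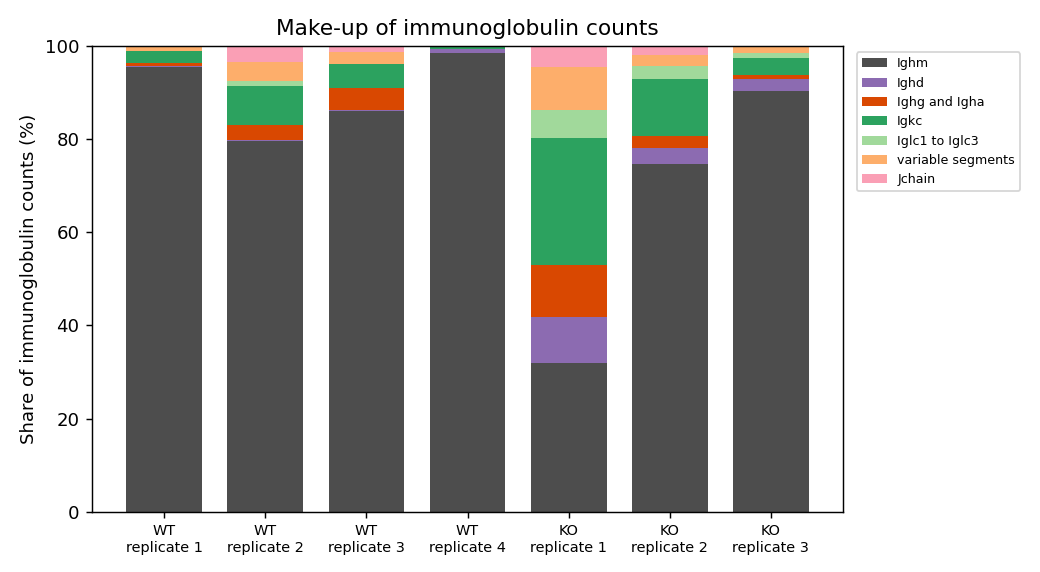
Make-up of the immunoglobulin counts of each library, as percent of that library's member counts, by constant region, Jchain and the sum of measured variable segments. Ighm takes 79.5% to 98.4% of the counts in the WT libraries and 32.0%, 74.7% and 90.2% in KO libraries 1 to 3.

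Ighd, the delta constant region of naive B cells (chr12:113406604-113416324, minus strand), separated the groups. It was at 0.731, 0.763, 0.653 and 6.61 CPM in WT libraries 1 to 4 and at 1136, 43.9 and 15.8 CPM in KO libraries 1 to 3. Every KO library was above every WT library, and WT replicate 4 stood above the other WT libraries. The mean was 399 ± 639 CPM in KO (n = 3, SD) and 2.19 ± 2.95 CPM in WT (n = 4, SD), with a log2 difference of 7.50 ± 1.80 (SE; edgeR adjusted p = 0.0965), or 3.76 without KO replicate 1. Ighd took 18.3%, 4.33% and 2.78% of heavy chain constant counts in KO libraries 1 to 3 and 0.186% to 0.986% in the WT libraries.

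None of the 5 switched classes, which B cells use after activation, separated the groups. Ighg2c, a gamma class of C57Bl/6 mice, was at 1.41, 6.30, 6.95 and 0 CPM in WT libraries 1 to 4 and at 879, 14.4 and 3.12 CPM in KO libraries 1 to 3. Ighg2b was at 0.0552, 0.449, 3.90 and 0 CPM in WT and at 208, 3.89 and 1.74 CPM in KO. KO replicate 3 lay below WT replicates 2 and 3 for Ighg2c and below WT replicate 3 for Ighg2b. Ighg3 was at 0.0276, 0.0673, 1.13 and 0 CPM in WT and at 101, 1.65 and 0.742 CPM in KO. Ighg1 was at 0.221, 0.808, 0 and 0 CPM in WT and at 42.7, 0.419 and 0 CPM in KO. For both, 1 WT library or more reached above KO replicate 3.

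Igha, the alpha class of mucosal antibodies, was at 0, 1.62, 6.49 and 0 CPM in WT libraries 1 to 4 and at 88.1, 10.1 and 0 CPM in KO libraries 1 to 3, so it was not seen in 1 KO and 2 WT libraries. The 5 switched classes together took 0.559%, 3.94%, 5.26% and 0% of heavy chain constant counts in WT libraries 1 to 4 and 21.3%, 3.01% and 0.99% in KO libraries 1 to 3. In WT replicate 4, 0 of 39558 such counts allows a share of up to 0.00758%. The edgeR adjusted p of the 5 lay between 0.167 and 0.42. Without KO replicate 1 the log2 difference of Ighg1 was -0.27, so its direction depended on that library.

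Light chains were kappa in the main, with a larger lambda part in the KO libraries. Igkc, the kappa constant region (chr6:70726435-70726966, plus strand), was at 7.92, 23.4, 19.5 and 3.26 CPM in WT libraries 1 to 4 and at 3203, 155 and 21.9 CPM in KO libraries 1 to 3. KO replicate 3 was below WT replicate 2, so the groups overlapped. The mean was 1127 ± 1800 CPM in KO (n = 3, SD) and 13.5 ± 9.51 CPM in WT (n = 4, SD), a log2 difference of 6.38 ± 1.64 (SE; edgeR adjusted p = 0.109), or 2.71 without KO replicate 1.

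Of the lambda constant regions shown above, Iglc2 separated the groups, and the separation of Iglc3 was fixed by its presence in the table. Iglc2 was at 0.0552, 0.785, 0.096 and 0.17 CPM in WT libraries 1 to 4 and at 361, 17.7 and 4.66 CPM in KO libraries 1 to 3 (log2 8.93 ± 1.80, SE; edgeR adjusted p = 0.0733). Iglc3 was at 0.0138, 0.112, 0.0192 and 0 CPM in WT and at 164, 10.8 and 1.07 CPM in KO (log2 10.73 ± 2.0, SE; edgeR adjusted p = 0.067). DESeq2 called Iglc2 (adjusted p = 5.8e-07). Iglc1 was at 0, 2.0, 0.23 and 0.17 CPM in WT and at 169.8, 7.12 and 0.768 CPM in KO, with KO replicate 3 below WT replicate 2. Without KO replicate 1 the log2 differences of Iglc2 and Iglc3 were 5.36 and 7.37.

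The lambda share of light chain constant counts was 17.8% (exact interval 17.6 to 18.0), 18.7% (17.9 to 19.6) and 22.9% (20.5 to 25.5) in KO libraries 1 to 3. In WT libraries 1 to 4 it was 0.864% (0.281 to 2.0), 11.0% (9.26 to 12.9), 1.74% (1.03 to 2.73) and 9.43% (5.86 to 14.2). The WT shares rested on 212 to 1174 counts, and the shares of the groups did not overlap. Lambda counts include Iglc3, which was in the table only through the KO libraries. Iglc3 gave 23.6%, 30.3% and 16.5% of lambda counts in KO libraries 1 to 3. It had 1, 5, 1 and 0 counts in WT libraries 1 to 4. The part of that selection in the gap between the groups was not tested. The KO shares lay close together although the Igkc level of these libraries spanned 21.9 to 3203 CPM. The lambda genes took different parts of it. Iglc1 took 24.5%, 20.04% and 11.8% of lambda counts in KO libraries 1 to 3 and 69.0% (exact interval 60.3 to 76.8) in WT replicate 2, the WT library with the most lambda counts (129).

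Jchain, the joining chain that antibody-secreting cells make (chr5:88519809-88527891, minus strand), did not separate the groups. It was at 0.897, 9.62, 5.20 and 0 CPM in WT libraries 1 to 4 and at 530.1, 23.4 and 0 CPM in KO libraries 1 to 3. KO replicate 3 and WT replicate 4 were both at 0 counts, while WT replicates 2 and 3 held it. The ratio of Jchain to Igkc CPM was 0.113, 0.411 and 0.266 in WT libraries 1 to 3 and 0.165 and 0.151 in KO libraries 1 and 2. The log2 difference was 5.56 ± 2.32 (SE; edgeR adjusted p = 0.255), and 1.57 without KO replicate 1.

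**Figure D3:**
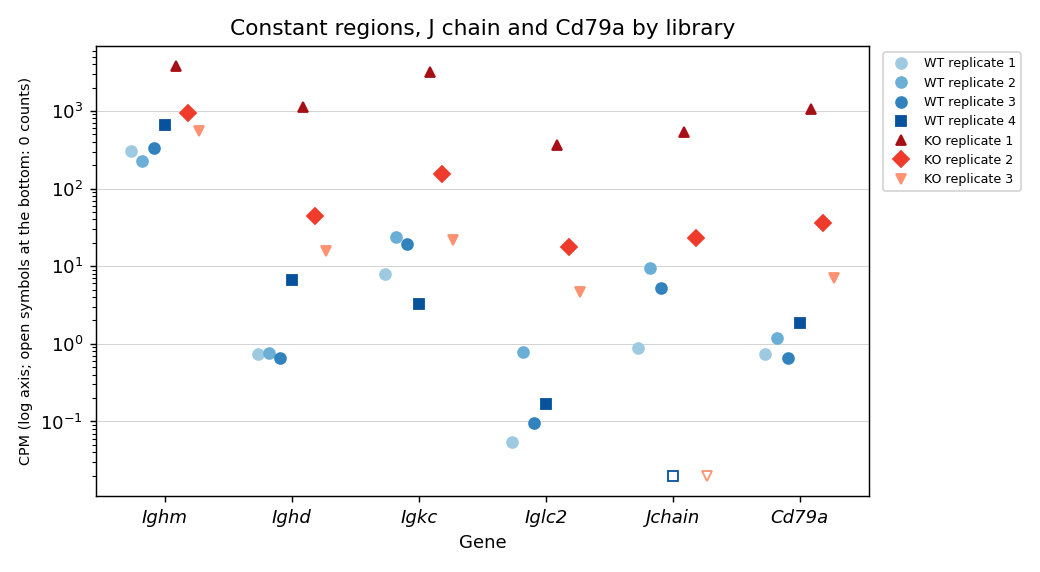
CPM on a log axis of 5 immunoglobulin genes and of the B cell marker Cd79a in each library, with open symbols at the bottom for 0 counts. For Ighd, Iglc2 and Cd79a the KO libraries (red) lie above the WT libraries (blue), while for Ighm, Igkc and Jchain the groups overlap.

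The measured heavy chain variable segments were 5 of the Ighv1 family and 2 of the Ighv6 family. They summed to 0.924, 1.57, 1.79 and 0 CPM in WT libraries 1 to 4 and to 120.1, 3.51 and 1.41 CPM in KO libraries 1 to 3. KO replicate 3 thus had a lower sum than WT replicates 2 and 3. Ighv1-64 (chr12:115507545-115508031, minus strand) was the segment used most in all 3 KO libraries, with 22.6% of 4496, 51.0% of 151 and 69.1% of 55 Ighv counts. It was at 27.1, 1.79 and 0.972 CPM in KO libraries 1 to 3 and at 0.0552, 0.0673, 0.499 and 0 CPM in WT libraries 1 to 4, and its KO libraries lay above its WT libraries (log2 5.99 ± 1.69, SE; edgeR adjusted p = 0.13; log2 3.15 without KO replicate 1).

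The other Ighv segments overlapped between genotypes. WT libraries 1 to 3 each had a different leading segment, Ighv1-55, Ighv1-15 and Ighv6-6, with 47.8% of 67, 27.1% of 70 and 36.6% of 93 Ighv counts. Ighv6-3 was at 25.4, 0.21 and 0 CPM in KO libraries 1 to 3 and at 0.234, 0.314, 0.269 and 0 CPM in WT. Ighv1-15, Ighv1-9, Ighv1-55 and Ighv1-59 were at 19.4, 18.1, 12.7 and 10.1 CPM in KO replicate 1 and at no more than 0.629 CPM in any other library. Ighv6-6 was at 7.40 CPM in KO replicate 1, at 0 in the other KO libraries and at 0.152, 0.247, 0.653 and 0 CPM in WT libraries 1 to 4. Without KO replicate 1 the log2 differences of Ighv6-3 and Ighv6-6 were -0.93 and -6.77, the reverse of their direction with it.

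The 23 measured kappa variable segments lay 27.4 to 2676 kb from Igkc, 7 on the strand of Igkc and the rest on the other. Igkv6-15 had the highest mean CPM of them (log2 7.47 ± 2.07, SE; edgeR adjusted p = 0.126; log2 3.59 without KO replicate 1). It was at 86.8, 1.63 and 2.53 CPM in KO libraries 1 to 3 and at 0, 0.135, 0.557 and 0 CPM in WT libraries 1 to 4. Every KO library was above every WT library. Igkv6-23 (singled out once its values were known) was at 41.0, 0.885 and 0.742 CPM in KO and at 0, 0.314, 0 and 0 CPM in WT, also without overlap. Igkv6-13, named for the same reason, was at 7.94, 0.279 and 0.537 CPM in KO and had 0 counts in all 4 WT libraries, so its mean was at least 53.7-fold higher in KO (against 3 counts in each WT library), or at least 7.52-fold without KO replicate 1. Its separation was fixed by its presence in the table. Igkv6-13 and Igkv6-23 are 93.7% and 94.5% identical to Igkv6-15, and reads that match more than 1 of them could count for several.

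Of the 5 Igkv4 segments, Igkv4-59 and Igkv4-68 were in the table only through the KO libraries, which fixed their separation. Igkv4-59 was at 21.4, 0.954 and 0.537 CPM in KO libraries 1 to 3, and 1 count was seen in the WT libraries together (edgeR adjusted p = 0.067). From the pooled counts it was 1644 times as abundant in KO, with an exact interval of 294 to 65017 that covers counting error only. KO replicate 1 gave 799 of the 861 KO counts, and without it the ratio was 172 (29.8 to 6918). Igkv4-68, singled out once its values were known, was at 15.2, 0.256 and 0.358 CPM in KO and also had 1 count in WT. The nearest relatives of Igkv4-59 and Igkv4-68 (Igkv4-70 and Igkv4-61) were 97.4% and 96.3% identical to them. Igkv4-57 was at 72.3, 0.349 and 0.205 CPM in KO and at 0.0138, 0.269, 0.518 and 0 CPM in WT, so beyond KO replicate 1 its libraries were mixed.

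The most kappa segments were detected in KO replicate 1, which also had by far the most Igkv counts. All 23 segments were detected in KO replicate 1, 21 in KO replicate 2 and 12 in KO replicate 3, against 9, 20, 15 and 1 in WT libraries 1 to 4. The effective number of segments (the inverse Simpson index, which equals the number of segments when all are used equally) was 15.7, 12.2 and 5.58 in KO libraries 1 to 3 and 2.44, 9.50, 10.4 and 1.0 in WT libraries 1 to 4. These numbers came from 26975, 803 and 272 Igkv counts in KO and from 127, 335, 371 and 28 in WT, and the index is imprecise where counts are few. Libraries were not compared at equal counts, so the part of the counts in the numbers detected was not tested. The leading segment was Igkv6-15 in KO replicates 1 and 3 and Igkv3-2 in KO replicate 2. Igkv6-15 took 12.0% (exact interval 11.7 to 12.4), 8.72% (6.86 to 10.9) and 36.4% (30.7 to 42.4) of Igkv counts in KO libraries 1 to 3. Igkv3-2 took 3.18% (2.97 to 3.40), 17.4% (14.9 to 20.2) and 0%, where the 0 of 272 counts allows up to 1.1%. For both segments these intervals do not overlap between the KO libraries, and for Igkv6-15 KO replicate 3 stood furthest from the others.

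**Figure D4:**
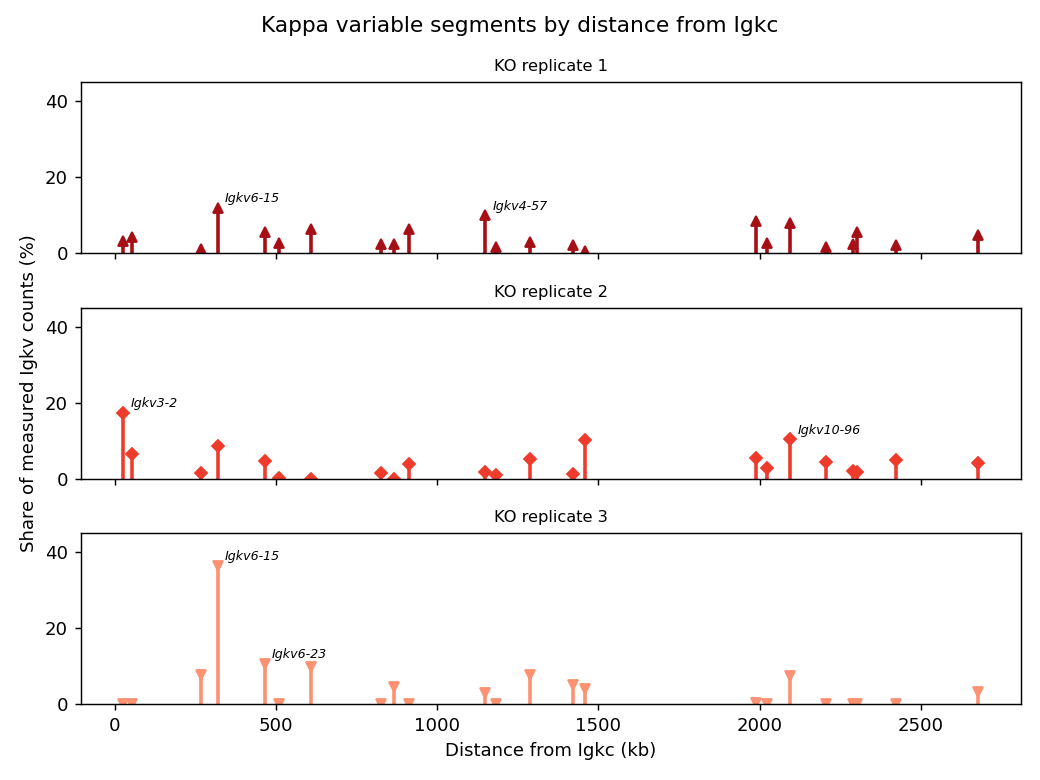
Share of the measured Igkv counts taken by each of the 23 kappa variable segments, against its distance from Igkc in kb, for KO libraries 1 to 3. Igkv6-15 leads in KO replicates 1 and 3, with 36.4% in replicate 3, and Igkv3-2 leads in KO replicate 2. Igkv4-57 is next in KO replicate 1, Igkv10-96 in KO replicate 2 and Igkv6-23 in KO replicate 3.

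Among the WT libraries, Igkv8-30 led in WT replicates 1 and 2, and other kappa segments led in WT replicates 3 and 4. Igkv8-30 took 59.8% of Igkv counts in WT replicate 1 and 21.8% in WT replicate 2 but 0 of 371 in WT replicate 3, where Igkv5-39 led with 17.5%. All 28 Igkv counts of WT replicate 4 were on Igkv16-104. Igkv8-30 was at 1.05, 1.64, 0 and 0 CPM in WT libraries 1 to 4 and at 45.5, 0 and 0.691 CPM in KO libraries 1 to 3, and Igkv5-39 was at 0, 0.0673, 1.25 and 0 CPM in WT and at 18.5, 0.279 and 0 CPM in KO. Igkv9-120 (singled out once its values were known), with KO libraries at 34.6, 0.791 and 0.23 CPM, was at 0 to 0.0576 CPM in the WT libraries, and was likewise in the table only through the KO libraries. For Igkv8-30 and Igkv5-39 the log2 difference was below 0 without KO replicate 1 (-0.96 and -1.20). Igkv19-93 was at 61.8, 1.05 and 0.0256 CPM in KO, Igkv10-96 at 56.9, 1.96 and 0.512 CPM, and Igkv12-44 at 46.3, 0.722 and 0 CPM, with WT libraries at up to 0.331, 0.808 and 0.768 CPM. For these 3 segments KO replicate 3 lay within the range of the WT libraries. The remaining 9 Igkv segments were at 4.68 to 30.6 CPM in KO replicate 1, at 0 to 1.91 CPM in the other KO libraries and at 0 to 1.14 CPM in the WT libraries, and each overlapped between the groups.

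The lambda variable segments, which join to the lambda constant regions, overlapped between genotypes. Iglv1 was at 0.0828, 2.33, 0.442 and 0.119 CPM in WT libraries 1 to 4 and at 183, 7.52 and 0.614 CPM in KO libraries 1 to 3. Iglv3 was at 0.0138, 0.314, 0.0384 and 0.0848 CPM in WT and at 52.0, 1.12 and 0.281 CPM in KO. WT replicate 2 reached above KO replicate 3 for both, and the same library held the most Iglc1 among the WT libraries. The edgeR adjusted p was 0.152 for Iglv1 and 0.118 for Iglv3.

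The sum of the B cell markers stood in the same order over the KO libraries as the immunoglobulin sum. The red cell list described below had this order too. Single markers did not all follow it: Cr2, Cd22, Bank1, Fcrla and Blnk were higher in KO replicate 3 than in KO replicate 2. The list of 18 B cell markers summed to 64.5, 73.3, 77.8 and 87.7 CPM in WT libraries 1 to 4 and to 8286, 364 and 219 CPM in KO libraries 1 to 3. Cd79a, which carries the signal of the B cell receptor, was at 0.731, 1.19, 0.653 and 1.87 CPM in WT and at 1049, 35.6 and 7.06 CPM in KO. Every KO library was above every WT library for Cd79a. Of the 18 markers, 17 had every KO library above every WT library (9.46% of all genes), 4 of them under 0.221 CPM in every WT library and so present only through the KO libraries. In edgeR 18 were higher at an unadjusted p under 0.05 (11% of all genes) and 0 at an adjusted one. Markers at 0 counts numbered 2, 1, 2 and 6 in WT libraries 1 to 4 and 0, 0 and 1 in KO libraries 1 to 3. Pax5, the regulator of B cell identity and singled out once its values were known, had 1 count over all WT libraries and was 1 of these 4. The part of B cells in the immunoglobulin differences was not tested.

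Other cell types also varied between libraries. The CD8 T cell list of 7 genes summed to 5873 to 7611 CPM in WT and to 2422, 6034 and 5955 CPM in KO libraries 1 to 3, lowest in the library with the most immunoglobulin. Cd8b1, a chain of the CD8 coreceptor, was at 1447 to 2449 CPM in WT and at 566, 2035 and 1881 CPM in KO. Cd3e, a chain of the T cell receptor complex, was at 956 to 1162 CPM in WT and at 453, 882 and 948 CPM in KO. No CD8 T cell marker was at 0 in any library. At an unadjusted p under 0.05, 0 of the 7 were higher and 1 was lower (11% and 7.89% of all genes). The myeloid list of 8 genes summed to 37.7 to 54.1 CPM in WT and to 1167, 62.1 and 890.1 CPM in KO, with none at 0. Of these 8 genes, 5 had every KO library above every WT library (9.46% of all genes). At an unadjusted p under 0.05, 6 were higher (11% of all genes). Lyz2, a lysozyme gene of myeloid cells, was at 0.712 to 7.52 CPM in WT and 725, 21.2 and 38.9 CPM in KO, and Csf1r, a receptor of macrophages, at 1.35 to 4.17 CPM and 150.2, 4.12 and 239 CPM. KO replicate 3, where the members other than Ighm summed to 59.0 CPM, was thus high in this list. The red cell list of 5 genes summed to 1.48 to 465 CPM in WT and to 46016, 6430 and 238 CPM in KO. All 5 were higher at an unadjusted p under 0.05 (11% of all genes), and 0 separated the groups (9.46% of all genes). The globin genes Hbb-bs and Hba-a1 were at 287 and 76.3 CPM in WT replicate 2, at 23.9 and 7.58 CPM or less in the other WT libraries, and at 26764 and 9180 CPM in KO replicate 1. The part of these cells in the immunoglobulin differences was not tested.

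Set against Cd79a, the members behaved in different ways. The ratio of Igkc to Cd79a CPM was 3.05, 4.34 and 3.10 in KO libraries 1 to 3, a narrow range over libraries with Cd79a between 7.06 and 1049 CPM. It was 10.8, 19.7 and 29.9 in WT libraries 1 to 3 and 1.75 in WT replicate 4. The ratio of Ighd to Cd79a was 1.08, 1.23 and 2.23 in KO and 1.0, 0.642, 1.0 and 3.55 in WT libraries 1 to 4, so for Ighd the ratios of the groups overlapped. Ighm had no such narrow range. Its ratio to Cd79a was 3.57, 26.4 and 77.1 in KO libraries 1 to 3 and 189 to 509 in the WT libraries. The ratio of Jchain to Cd79a was 1.23, 8.09 and 7.97 in WT libraries 1 to 3 and 0.505 and 0.657 in KO libraries 1 and 2. WT libraries 1 to 3 therefore held more Igkc and more Jchain for their Cd79a than any KO library, though the WT ratios rest on only 34 to 110 counts of Cd79a.

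Genes that act with immunoglobulins were read from further lists, to be held against the 11% of all genes that were higher and the 7.89% that were lower at an unadjusted p under 0.05. Secretion and plasma cell genes gave no common direction: of 9 measured, 2 were higher and 1 lower at an unadjusted p under 0.05, and the list's median log2 difference was 0.47. Txndc5 and Sec11c, which help to fold and process proteins in the endoplasmic reticulum, were at 232 ± 79.8 and 245 ± 47.2 CPM in KO (n = 3, SD) and at 335 ± 20.8 and 288 ± 44.4 CPM in WT (n = 4, SD), and neither passed the test. Mzb1, Sdc1 and Tnfrsf17, which mark plasma cells more closely, had no row under these names among the genes measured. Of 6 germinal centre genes, 2 were higher at an unadjusted p under 0.05. Bcl6, a regulator of these B cells and of some T cells, was at 8.95 to 16.5 CPM in WT and at 96.6, 28.6 and 12.2 CPM in KO. S1pr2, a receptor that holds cells in the germinal centre, was at 14.2 to 37.0 CPM in WT and at 17.7, 8.47 and 20.3 CPM in KO.

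Of the genes that rearrange immunoglobulin segments or stand in for a light chain, 2 of 6 were measured. Dntt, which adds bases where segments are joined, was at 0, 0.0673, 0.115 and 0 CPM in WT libraries 1 to 4 and at 1.68, 4.12 and 8.93 CPM in KO libraries 1 to 3 (log2 6.75, edgeR adjusted p = 0.0704), and it too was in the table only through the KO libraries. Its order over the KO libraries was the reverse of that of the immunoglobulin sum. Vpreb1, part of the surrogate light chain, was at 0.224 to 0.746 CPM in WT and at 0.256 to 0.384 CPM in KO.

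Of 15 genes of B cell receptor signalling, 7 were higher and 0 lower at an unadjusted p under 0.05. Prkcb and Malt1, which T cell receptors also use, were at 381 ± 109 and 163 ± 20.9 CPM in KO (n = 3, SD) and at 315 ± 36.2 and 169 ± 15.3 CPM in WT (n = 4, SD), differences within the spread of the KO libraries. Of 10 regulators of immunoglobulin genes, 8 were higher and 0 lower. Irf8, a factor of B cells and myeloid cells, was at 21.9 to 39.7 CPM in WT and at 656, 63.2 and 80.1 CPM in KO. Tcf3, the E protein needed for early B cells, was at 302 to 380.3 CPM in WT and at 309.97, 229 and 301 CPM in KO. Of 7 Fc receptor genes, 6 were higher and 0 lower. Fcmr, the receptor for IgM, was at 0, 0.292, 0 and 0.576 CPM in WT libraries 1 to 4 and at 601, 18.8 and 4.61 CPM in KO libraries 1 to 3, and its groups did not overlap. Fcgrt, which protects IgG from breakdown, was at 45.8 to 68.6 CPM in WT and at 73.9, 79.9 and 113 CPM in KO, also without overlap. No gene of these lists passed an adjusted p of 0.05 in edgeR. Bcl6, Txndc5, Vpreb1, Cd3e and Csf1r share exon bases with a gene on the opposite strand, and whether the counting used strand is not given in the sources used here.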

How the data were processed

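Per the submitters' processing notes, the tools were Trim Galore 0.6.0, STAR 2.7.8 and DESeq2, with the build mm10; no source used here names the counting step. What the authors deposited were raw gene counts of the 7 libraries and log2 values made from them. The deposited log2 values equal edgeR's log2 CPM of those counts with a prior count of 2 to within 5e-09, and only the counts were tested. Names came from the table or, for 7 members, from GENCODE M21. The main test was edgeR 4.0.16 (R 4.3.3): TMM scaling, filterByExpr (0 genes removed), quasi-likelihood fit, genotype as the only term, Benjamini-Hochberg over 16156 genes. The script was tested on simulated counts. CPM are TMM-scaled. Alternatives were other scalings and filters, DESeq2 1.42.0, limma 3.58.1, a bias-adjusted fit, a replicate block and left-out libraries. Libraries held 37473484 to 75586011 counts. Shares carry 95% exact Clopper-Pearson intervals, which cover counting error only. Coding sequences were aligned with Biopython 1.88. The members and lists were chosen with earlier results of these data known. Named genes were all constant regions, Jchain, the 6 members of each variable class with the highest mean CPM, the 3 members with the smallest p, each library's leading segment and the 2 genes of each list with the highest mean CPM. One list gene that this rule would name is left out of the text.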

Additional observations from a re-analysis of the deposited data

Results flagged for a closer look

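In a group of 4 libraries, a value was picked out where its gap to the nearest other library, as a share of the group's range, passed Dixon's 95% critical value. Of 56 genes looked at in the WT libraries, 17 had such a value. Chance alone picks out about 1 in 20, but a low gene seen in a single library is always picked out, so for such genes this says only where the counts lie.

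In WT replicate 4, Ighd was at 6.61 CPM against 0.653 to 0.763 CPM in the other WT libraries, Irf8 at 39.7 CPM against 21.9 to 24.8 CPM, and Vpreb1 at 0.746 CPM against 0.224 to 0.25 CPM. The same library had no counts of Jchain or of the switched classes.

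WT replicate 2 stood apart for lambda and globin genes. Iglc1 was at 2.0 CPM against 0 to 0.23 CPM, Iglc2 at 0.785 CPM against 0.0552 to 0.17 CPM, and Iglv1 at 2.33 CPM against 0.0828 to 0.442 CPM. Hbb-bs was at 287 CPM against 0.979 to 23.9 CPM, Hba-a1 at 76.3 CPM against 0.269 to 7.58 CPM, and Lyz2 at 7.52 CPM against 0.712 to 1.25 CPM. Of the heavy chain segments, Ighv1-9 was at 0.359 CPM against 0 to 0.0414 CPM and Ighv1-15 at 0.426 CPM against 0.

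WT replicate 3 stood apart for gamma classes and a few segments. Ighg2b was at 3.90 CPM against 0 to 0.449 CPM, Ighg3 at 1.13 CPM against 0 to 0.0673 CPM and Ighv1-64 at 0.499 CPM against 0 to 0.0673 CPM. Igkv5-39 was at 1.25 CPM against 0 to 0.0673 CPM. Ighv1-59 was at 0.326 CPM and Igkv4-59 at 0.0192 CPM, both at 0 in the other WT libraries.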

How the results depend on the processing

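Other scalings and filters left the counts of members and their median log2 difference as they were or nearly so. At an adjusted p under 0.05 the 0 higher members became 7 with DESeq2, 12 with limma voom, 7 with the bias-adjusted fit, 7 without both KO replicate 1 and WT replicate 4, and 0 to 3 when 1 library at a time was left out (0% to 0.879% of all genes). At an unadjusted p under 0.05 the 35 higher members became 11 with DESeq2 (12% of all genes), 10 without both libraries (14.7% of all genes; 1 was then lower, against 14.7%) and 8 to 39 with 1 library left out (7.74% to 12.7%). The members present only through the KO libraries were all among the 35, the 10 and the 8. The members with every KO library above every WT library numbered 10 to 27 with 1 library left out (up to 17% of all genes). The median log2 difference was 1.64 to 6.75 with 1 library left out and 1.37 without both. Leaving out a library also lowers the number of libraries, and without a WT library the filter tested fewer members. The cause of the other changes was not tested.

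Libraries share replicate numbers. Deviations of same-numbered libraries from their group means had correlations of -0.11, -0.05 and 0.14, and those of other pairs lay between -0.09 and 0.10. With so few libraries these values cannot decide whether the numbers pair them. With the replicate block 0 members were higher after adjustment (0% of all genes), 9 at an unadjusted p under 0.05 (8.15% of all genes), and the median log2 difference was 3.41.

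Of the values of single genes and shares under the alternatives, 759 kept their side of the threshold or stayed within their interval, 55 passed the threshold only in the alternative and 20 changed direction. With limma voom the log2 difference was 0.35 for Vpreb1, -0.52 for Igkv8-30 and -1.45 for Ighv6-6. With the replicate block it was 0.38 for Vpreb1 and -2.48 for Ighv6-6. Without KO replicate 1 it was -1.20 for Igkv5-39, -0.96 for Igkv8-30, -0.27 for Ighg1, -0.93 for Ighv6-3 and -6.77 for Ighv6-6. It was 0.028 for Malt1 without KO replicate 2 and 0.40 for Vpreb1 without WT replicate 4. With each library left out in turn, the log2 difference ranged from -0.16 to 0.028 for Malt1, -0.40 to 0.40 for Vpreb1, -1.20 to 4.83 for Igkv5-39, -0.96 to 5.43 for Igkv8-30, -0.27 to 6.41 for Ighg1, -0.93 to 5.96 for Ighv6-3 and -6.77 to 3.81 for Ighv6-6. Without both KO replicate 1 and WT replicate 4 it was -0.010 for Prkcb, 0.45 for Vpreb1, -1.59 for Igkv5-39, -1.35 for Igkv8-30, -0.68 for Ighg1, -1.32 for Ighv6-3, -7.13 for Ighv6-6 and -0.19 for Ighv1-9. A count of 0 allows up to 0.0414 to 0.0802 CPM, so most WT values of single segments lie near what depth can show.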

Other observations

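The table also held 5 short heavy chain segments that the rule for the members does not include: the joining segments Ighj1 to Ighj4 and the diversity segment Ighd4-1, which lie between the variable segments and Ighm. Ighj4 had 1, 1, 1 and 0 counts in WT replicates 1 to 4 and 132, 29 and 23 counts in KO replicates 1 to 3 (edgeR adjusted p = 0.0651). Ighj2 had 3, 2, 2 and 0 counts in WT and 54, 47 and 27 in KO (edgeR adjusted p = 0.0651). Ighj3 had 0 counts in every WT library and 71, 15 and 17 in KO. These 3 segments were under 0.221 CPM in every WT library, so their presence in the table required all 3 KO libraries and fixed that the groups did not overlap.

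Ighj1 had 2, 4, 1 and 25 counts in WT replicates 1 to 4 and 57, 64 and 28 in KO replicates 1 to 3. Ighd4-1 had 0, 1, 0 and 18 counts in WT and 23, 14 and 5 in KO. As CPM, every KO library was above every WT library for Ighj1 but not for Ighd4-1. For both, WT replicate 4 was the highest WT library, as it was for Ighm and Ighd, although that library had 28 Igkv counts and 0 Ighv counts among the measured segments.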
